A study of Mus musculus with 10 samples.

Results

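The H3K27ac regions nearest Dach1 and Klf12, neighbouring transcription factor genes on mouse chromosome 14, were taken from the lists of regions that the authors' test separated between MDM and YSM brain macrophages. A region was counted as a member when the protein-coding gene whose start or end lay nearest to its midpoint was Dach1 or Klf12, at any distance. The rule gave 23 of 1320 listed regions, each 2001 bp long. All 9 regions nearest Dach1 came from the MDM list and all 14 regions nearest Klf12 from the YSM list. The count of YSM regions at Dach1 and of MDM regions at Klf12 was 0. Of the 723 genes with any region, 8 (1.11%) had regions of both lists, though many of these genes had only 1 region. Which list a region stands in is what chose these genes, so the opposite lists are described here and not tested.

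The libraries were made by CUT&Tag, in which an antibody guides a transposase to the DNA beside a histone mark, from sorted brain parenchymal macrophages. All groups carried Ms4a3Cre:R26-tdTomato, a reporter in which Cre under the control of Ms4a3 marks progeny of granulocyte and monocyte progenitors, and were labelled DR-3x as treatment, a term without explanation there. There were 4 MDM and 4 YSM libraries for H3K27ac; MDM means monocyte-derived macrophages in the title and YSM is not spelled out. The lists give no level, fold, p-value or value per library, their depth is unknown, and no error between libraries can be given. Regions listed under a group's name were taken to carry more H3K27ac there, although the direction of the authors' test is not given in the sources used here. The lists hold regions that differed, so they cannot show the identity of the cells: of 10 brain macrophage and microglia markers, only Sall1 had a listed region, in the YSM list. Among markers of other cell types, YSM regions were nearest 2 of 3 neuronal and 2 of 3 oligodendrocyte genes. They were also nearest 1 of 3 endothelial, 0 of 3 astrocyte and 0 of 5 neutrophil and monocyte genes. MDM regions were nearest 0 of each. Of all coding genes, 2.16% were the nearest to at least 1 YSM region and 1.18% to at least 1 MDM region. The nearest YSM region lay outside Syt1 (286 kb), Cdh5 (136 kb), Snap25 (33.4 kb) and Mog (5.47 kb), and inside Mbp. The part of these other cell types in the regions at Klf12 was not tested.

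H3K27ac, acetylation of lysine 27 on histone H3, is laid down by the acetyltransferases p300 and CBP and marks active promoters and enhancers. A gene controlled by distant enhancers often carries the mark at its promoter and at several sites within or beside the gene. Dach1 encodes a DNA-binding cofactor related to the fly protein dachshund, which acts with Eya coactivators and sine oculis homeobox proteins and often represses its targets. Klf12 encodes a zinc-finger protein of the Krüppel-like family, also known as AP-2rep, which represses transcription through the corepressor CtBP. Krüppel-like factors bind GC-rich and CACCC-type sequences.

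Promoter sequences were available from RefSeq (GRCm38.p6, the assembly of mm10) as windows from 250 bases before to 50 bases after a transcription start. Both genes had such a window, and each gene's annotated 5' end faced a long non-coding RNA gene that starts on the other strand, Gm33583 at Dach1 and Gm41231 at Klf12. The 4 windows are shown because the listed regions covered 3 of them and missed the fourth. Each is written 5' to 3' on its gene's strand. Capitals mark matches on either strand to any of 14 motifs searched; those found were the CACCC box (CCACCC), the core of the PU.1 site (GAGGAA), the GC box (GGGCGG) and the TATA box (TATAAA).
Dach1, chr14:98169716-98170015, minus strand: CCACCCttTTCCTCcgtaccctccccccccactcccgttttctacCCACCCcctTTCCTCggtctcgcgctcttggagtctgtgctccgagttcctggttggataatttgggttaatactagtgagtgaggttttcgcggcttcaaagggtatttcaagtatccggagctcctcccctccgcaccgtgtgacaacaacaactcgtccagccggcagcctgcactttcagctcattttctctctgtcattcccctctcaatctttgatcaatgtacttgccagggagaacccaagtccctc
Gm33583, chr14:98169918-98170217, plus strand: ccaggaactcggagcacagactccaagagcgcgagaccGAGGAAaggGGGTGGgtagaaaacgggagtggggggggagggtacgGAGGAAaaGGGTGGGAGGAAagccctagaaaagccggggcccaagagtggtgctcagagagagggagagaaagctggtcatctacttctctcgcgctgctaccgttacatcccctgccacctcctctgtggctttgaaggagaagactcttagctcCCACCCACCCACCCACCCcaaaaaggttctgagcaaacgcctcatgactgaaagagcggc
Klf12, chr14:100149747-100150046, minus strand: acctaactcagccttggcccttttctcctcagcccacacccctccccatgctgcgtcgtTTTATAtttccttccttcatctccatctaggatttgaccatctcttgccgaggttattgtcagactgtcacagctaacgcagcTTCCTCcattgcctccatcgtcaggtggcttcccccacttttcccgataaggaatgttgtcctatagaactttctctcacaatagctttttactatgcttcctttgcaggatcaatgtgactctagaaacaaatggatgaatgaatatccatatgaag
Gm41231, chr14:100285473-100285772, plus strand: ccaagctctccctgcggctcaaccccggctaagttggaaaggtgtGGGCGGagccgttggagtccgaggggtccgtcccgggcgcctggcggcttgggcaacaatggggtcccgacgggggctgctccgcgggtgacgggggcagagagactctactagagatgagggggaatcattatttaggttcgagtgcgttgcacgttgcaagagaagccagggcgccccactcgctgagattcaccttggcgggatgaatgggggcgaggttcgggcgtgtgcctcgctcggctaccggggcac

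The Dach1 window lay wholly within 2 MDM regions. Windows that overlapped an MDM region made up 0.128% of 32851 windows, and windows that overlapped a YSM region 0.259%. The Gm33583 window overlapped the same 2 MDM regions, and 1 of them held it whole. Its start in the promoter table (98170168) lies 403 bp from that of Dach1, and the windows share 98 bases. The gene table starts Gm33583 closer to Dach1, at 98169904. The Klf12 window overlapped no listed region, and the nearest one, of the YSM list, lay 59.8 kb away. The Gm41231 window overlapped 3 YSM regions, of which 2 held it whole; the transcription start of Gm41231 lies 168 bp inside the annotated 5' end of Klf12. The covered promoter at the Klf12 end was therefore the one of the facing non-coding gene and the far 5' end of the Klf12 annotation, 136 kb upstream of the start in the promoter table. The gene table lists 1 curated and several predicted Klf12 transcripts without their single positions, so the transcript that begins at the far end cannot be named.

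The windows also differed in base composition. GC content was 54.0% at Dach1, 58.7% at Gm33583, 45.7% at Klf12 and 65.3% at Gm41231, against a median of 52.7% over all windows. The ratio of observed to expected CpG dinucleotides was 0.657 at Dach1, above 67.9% of all windows, and 0.844 at Gm41231, above 82.7%. At Klf12 it was 0.426, above 53.2%, and the median over all windows was 0.384. The covered Gm33583 window had a ratio of 0.471, above 56.2%. By these measures the uncovered Klf12 window was the poorest in GC and in CpG of the 4, but its CpG ratio was close to that of Gm33583.

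Motif matches in the windows were few and of common kinds. The Dach1 window held 2 CACCC boxes, at -250 and -205 from the start, and 2 PU.1 cores, at -242 and -196; PU.1 is the factor that defines the myeloid lineage. The Gm33583 window held 6 CACCC boxes and 3 PU.1 cores. Of these boxes, 4 overlap each other in a short repeat around the start, and the other 2, with 2 of the cores, are those of the Dach1 window in the shared bases, read from the opposite strand. The Klf12 window held 1 PU.1 core, at -108, and 1 TATA box, at -191, and the Gm41231 window 1 GC box, at -205. A CACCC box stands in 31.5% of all windows of this length, a PU.1 core in 28.3%, a GC box in 35.7% and a TATA box in 13.6%. A match is a description of the letters and not a bound site.

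The 9 MDM regions at Dach1 formed 4 groups when regions within 5 kb were joined. Dach1 is read from the minus strand, so its 5' end is the right one (98169765) and its 3' end the left one (97786846). A group of 3 overlapping regions covered the 5' end, from 98166973 to 98170834, and spanned 3.86 kb. Its members were chr14:98166973-98168973, with the midpoint 1.79 kb inside the gene, chr14:98168146-98170146, 0.619 kb inside, and chr14:98168834-98170834, 0.069 kb upstream of the 5' end. The latter 2 reached into the span of Gm33583 as the gene table gives it, from 98169904. A single region, chr14:98066539-98068539, lay inside the gene 102 kb from the 5' end.

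The other 5 Dach1 regions lay beyond the 3' end of the gene. A group of 4 overlapping regions ran from 97758572 to 97761731 and spanned 3.16 kb, with midpoints between 26.1 and 27.3 kb downstream of the 3' end. The outermost region, chr14:97742384-97744384, lay 43.5 kb downstream. No other annotated gene of any type overlapped these 5 regions or the one at 102 kb. The promoter end and the downstream side together thus held 8 of 9 regions, and the long gene body between them held 1 more.

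The 14 YSM regions at Klf12 formed 8 groups. Klf12 is also read from the minus strand, with its annotated 5' end at 100285891 and its 3' end at 99866181. The group at the 5' end held 4 overlapping regions from 100282528 to 100287055 and spanned 4.53 kb. Its members were chr14:100282528-100284528, with the midpoint 2.36 kb inside the gene, chr14:100283584-100285584, 1.31 kb inside, chr14:100283895-100285895, 0.996 kb inside, and chr14:100285055-100287055, 0.164 kb upstream. The last 2 overlapped the annotated span of Gm41231. Like the group at the Dach1 5' end, this one stood over the annotated start of a coding gene and that of a facing non-coding gene.

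Further YSM regions followed inside Klf12 in the direction of transcription. Single regions lay 25.1 kb (chr14:100259775-100261775) and 49.9 kb (chr14:100235026-100237026) from the 5' end. A group of 2, from 100221403 to 100225290, had midpoints at 61.6 and 63.5 kb. A group of 3, from 100209821 to 100214144, had midpoints at 72.7, 74.6 and 75.1 kb. All of these lay upstream of the start in the promoter table. With the 3 at the 5' end whose midpoints were inside the gene, 10 regions stood between that start and the annotated 5' end.

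The remaining 3 Klf12 regions were single. In the body of the gene lay chr14:100025043-100027043, 260 kb from the 5' end, and chr14:99932653-99934653, 352 kb from it and 67.5 kb from the 3' end. Upstream of the gene lay chr14:100460491-100462491, 176 kb from the 5' end and inside the long non-coding RNA gene Gm34199. Downstream of the Klf12 3' end the count was 0, where Dach1 had 5.

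**Figure D1:**
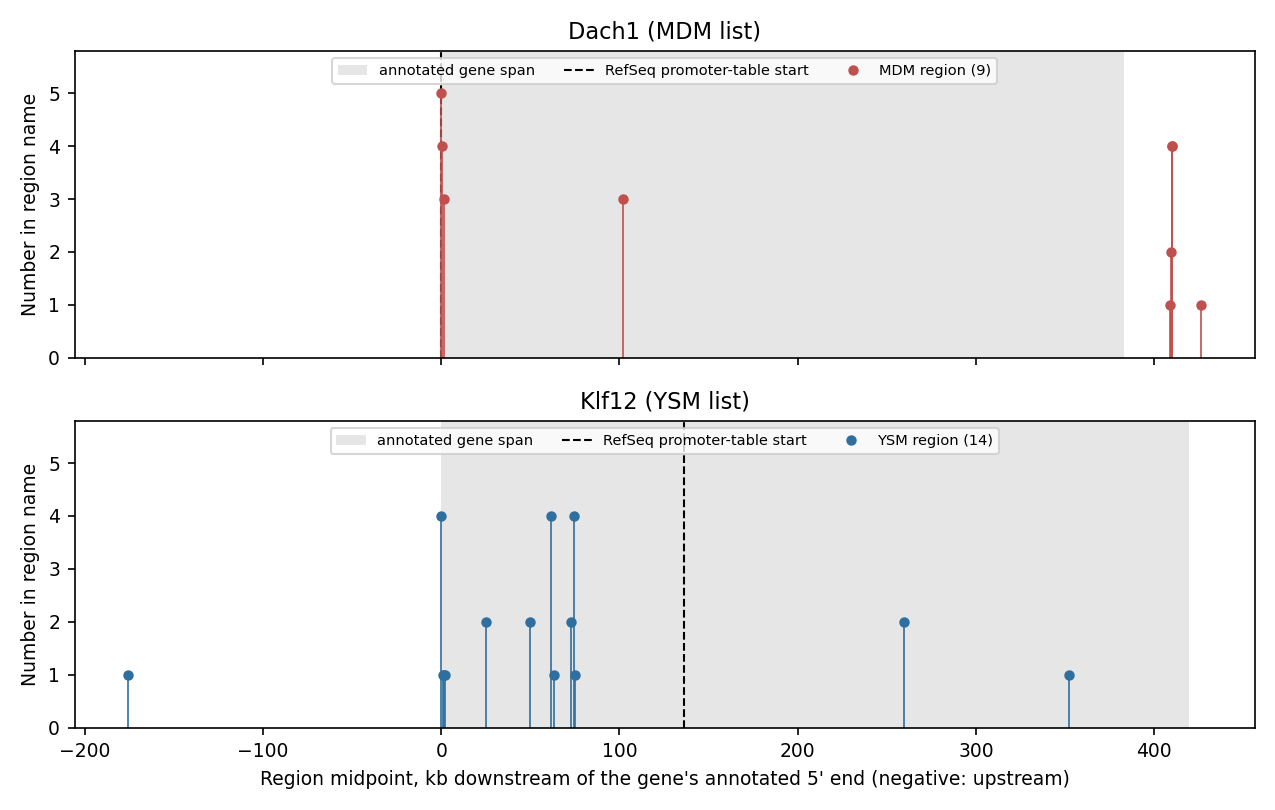
Midpoints of the listed regions at Dach1 (top, 9 MDM regions) and Klf12 (bottom, 14 YSM regions), in kb downstream of the annotated 5' end on the gene's strand, against the whole number at the end of the region's name; grey is the annotated gene and the dashed line the start in the RefSeq promoter table. Dach1 regions stand at the 5' end, once in the body and beyond the 3' end, and most Klf12 regions between the 5' end and the dashed line 136 kb into the gene.

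The regions of the genes lay in different places. Of the Dach1 regions 3 of 9 had their midpoint inside the gene (33.3%, exact Clopper-Pearson 95% interval 7.49 to 70.1), and of the Klf12 regions 12 of 14 (85.7%, 57.2 to 98.2). These intervals are computed as if the regions were independent draws. Overlapping regions of 1 gene are not independent, so the intervals are no measure of error and no test was made. Over the whole lists, 46% of MDM and 59.2% of YSM regions lay inside the gene of the nearest end. The nearest end was the 5' end for 4 of 9 Dach1 regions and for 12 of 14 Klf12 regions. Both Klf12 values rest on the far annotated 5' end. Counted from the start in the promoter table, 12 of the 14 regions lay upstream and 2 downstream. Among regions whose gene had a strand in the promoter table, it was the 5' end for 55.0% of 353 MDM and 52.3% of 684 YSM regions.

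Regions at the gene ends and beside non-coding genes were found at both loci. Of the Dach1 regions 2 of 9 had their midpoint within 1 kb of a gene end, and of the Klf12 regions 2 of 14, where the lists as a whole had 10.5% and 10.1%. A long non-coding RNA gene overlapped 2 of 9 Dach1 and 3 of 14 Klf12 regions, against 11% of MDM and 13.5% of YSM regions. Among regions within 1 kb of a gene end, 4 of 45 in the MDM list (8.89%) and 26 of 90 in the YSM list (28.9%) overlapped such a gene. The 2 regions over the Dach1 start and Gm33583 were therefore part of a set of 4 in the MDM list.

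The listed regions covered 11.0 kb of DNA at Dach1 and 22.7 kb at Klf12, once overlaps were counted a single time. They were spread over 428 kb at Dach1 and 530 kb at Klf12. Overlap with another region of the same list was present for 7 of 9 Dach1 regions and 9 of 14 Klf12 regions, so the counts of groups, 4 and 8, describe the number of separate places better than the counts of regions.

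Each region name ends in a whole number of unstated meaning. Along Dach1, from the far downstream region to the 5' end, it was 1, then 4, 4, 2 and 1 in the downstream group, 3 in the gene body, and 3, 4 and 5 at the 5' end. Along Klf12, from the 3' side to the 5' end, it was 1 and 2 in the body, 1, 4 and 2 in the group of 3, 1 and 4 in the group of 2, 2 and 2 at the single regions, 1, 1, 1 and 4 at the 5' end, and 1 upstream. The 2 regions over the Dach1 promoter bore the numbers 4 and 5, and the 2 regions over the annotated 5' end of Klf12 the numbers 1 and 4. Numbers of 4 or more were borne by 4 of 9 Dach1 regions and 3 of 14 Klf12 regions, against 55.4% of the MDM list and 16.6% of the YSM list. The authors' score was 1 in all 23 regions and ranks none of them.

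Within the mapped interval, from 97 to 101 Mb of chromosome 14, the list changed once. The interval held 23 listed regions, 9 MDM followed by 14 YSM, and all of them were members. From the right edge of the last MDM region (98170834, over the Dach1 start) to the left edge of the first YSM region (99932653, inside Klf12) lay 1762 kb without a region of either list. The genes themselves are 1696 kb apart. The change from one list to the other therefore fell in the space between the genes and the 3' part of Klf12, and no region of one list stood among those of the other.

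Between the facing regions lie 5 protein-coding genes, none with a listed region: Mzt1, which encodes a component of the gamma-tubulin complex, Bora, an activator of Aurora A kinase, Dis3, a catalytic subunit of the RNA exosome, Pibf1, a centrosomal protein, and Klf5, a Krüppel-like activator. Klf5 is the coding gene next to Klf12 on that side. With Dach1 and Klf12 these make up the 7 protein-coding genes of the interval, among 39 annotated genes of any type. Beyond Dach1, the last listed region to the left belonged to the YSM list and had Pcdh20 as its nearest gene, 7915 kb from the outermost Dach1 region. Beyond Klf12, the next region to the right was of the YSM list as well, near Tbc1d4, a regulator of glucose transporter traffic, 1153 kb from the outermost Klf12 region. The Dach1 regions thus formed a run of 9 MDM regions with YSM regions on either side, and the Klf12 regions a run of 15 YSM regions together with the one near Tbc1d4.

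**Figure D2:**
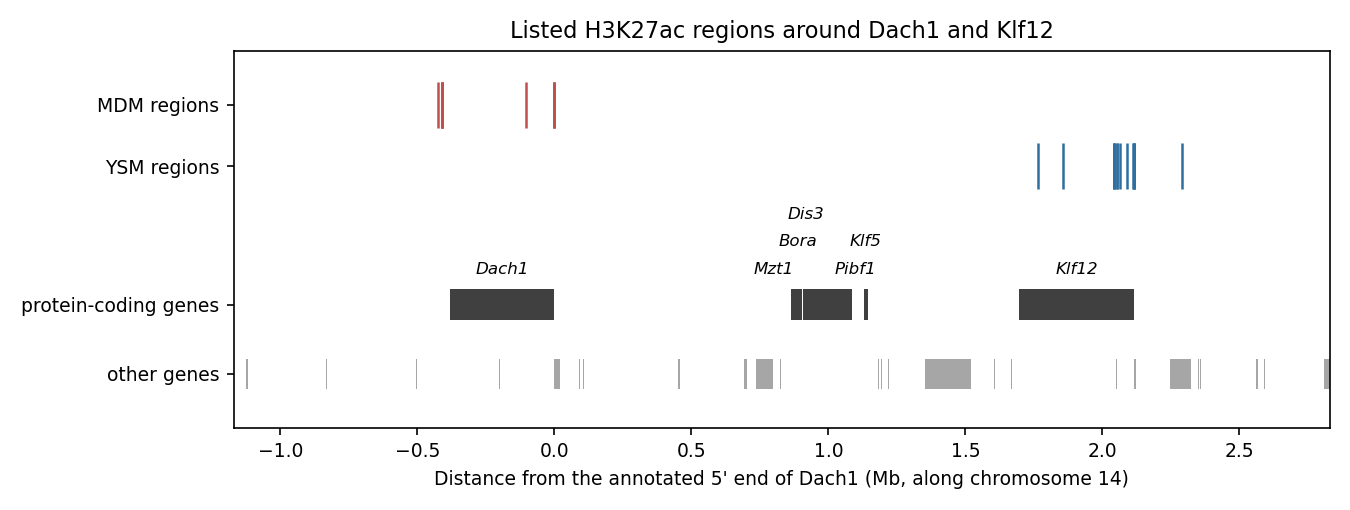
Listed regions of the MDM list (top row, red) and YSM list (next row, blue) with protein-coding genes (dark bars) and genes of other types (light bars) over the mapped 4 Mb, in Mb from the annotated 5' end of Dach1 along the chromosome. The 9 MDM regions stand at and left of Dach1, the 14 YSM regions at and right of Klf12, and the 5 coding genes between have none.

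On chromosome 14 as a whole the lists held 95 regions, 26 MDM and 69 YSM. Dach1 accounted for 34.6% of the MDM regions of the chromosome and Klf12 for 20.3% of its YSM regions. The list changed 18 times along this chromosome and 291 times along all chromosomes. The median gap at a change was 2214 kb and the shortest 63.8 kb, so the 1762 kb between Dach1 and Klf12 ranked 129 of 291, with 44.0% of changes shorter. Between neighbouring regions of the same list that did not overlap, the median gap was 271 kb. Of all 1034 gaps between neighbouring regions, 387 (37.4%) were at least as long as this one. The distance between the opposite runs was therefore near the middle of what the lists hold.

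The runs on either side of the change held more regions than the median run of their list. The MDM run of 9 ranked 3 of 154 MDM runs, where the median was 2. The YSM run of 15 ranked 10 of 157 YSM runs, where the median was 4. Of all changes of list, 8 joined different genes with at least 3 regions each. The pair of Dach1 and Klf12 had the most regions, 23 in both genes, and 9 on the side with fewer, where the others had 3 or 4. The closest such pair was Clint1 (4 YSM regions) and Adam19, a membrane metalloprotease gene (5 MDM regions), 464 kb apart. Lrrk2, a kinase gene (4 MDM regions), and Gxylt1 (3 YSM regions) followed at 1541 kb, then Dach1 and Klf12. Tmem229a (3 YSM) and Grm8, a glutamate receptor gene (3 MDM), stood 1807 kb apart, and Marveld2 (3 YSM) and Cwc27 (3 MDM) 4007 kb apart. Since the genes were chosen for their counts on opposite lists, this order carries no test.

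**Figure D3:**
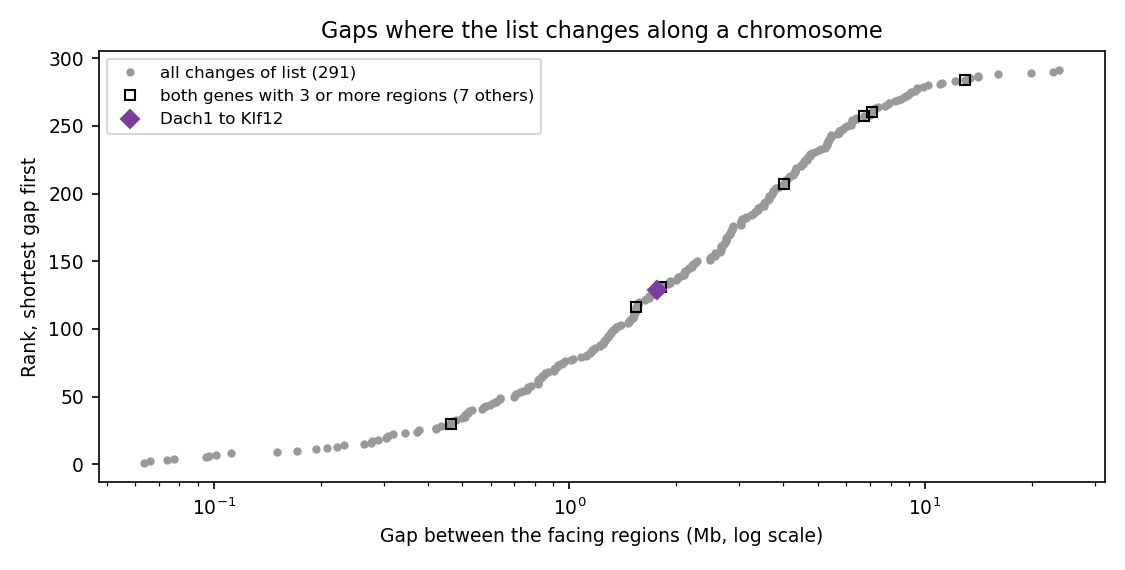
Gap in Mb (log axis) between facing regions at each of the 291 changes of list along a chromosome, ranked from the shortest; squares are the 7 other changes that join genes with at least 3 regions each, and the diamond is Dach1 to Klf12. The diamond stands at rank 129, near the middle of the curve.

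Counted per gene, Klf12 had more YSM regions than any other of 21887 protein-coding genes. Its count of 14 fell to 3 when genes of all types were allowed as the nearest gene and to 7 with name numbers of 2 or more. Of these genes, 2.16% were the nearest to at least 1 YSM region and 1.18% to at least 1 MDM region. As many YSM regions as Klf12 were found at 1 gene (0.00457%), Klf12 itself, and as many MDM regions as Dach1 at 2 genes (0.00914%). These shares use the measure that chose the genes and are given only as description. The other MDM gene was Zfp386, a zinc-finger gene, with 21 regions, none closer than 173 kb. Plcb4, a phospholipase C gene, and Fshr, the receptor of follicle-stimulating hormone, followed Dach1 with 6 each, tied with Lmo4 and Mmadhc, which had no region inside the gene. Behind Klf12 stood Sall1, the transcription factor of microglia identity, with 12 YSM regions, and Adamts16, a secreted metalloprotease gene, and Ptprm, a receptor phosphatase gene, with 11 each, tied with Fam155a, which had no region inside the gene.

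By groups rather than regions the order changed. Klf12 with its 8 groups shared rank 2 in the YSM list with 2 other genes, behind Ptprm with 9. Dach1 with its 4 groups shared rank 3 in the MDM list with 5 other genes, behind Zfp386 with 16 and Lmo4 with 5. By length of DNA covered, Klf12 ranked 1 in the YSM list and Dach1 ranked 3 in the MDM list. Of the 723 genes with any region, 8 (1.11%) had regions of both lists, and neither Dach1 nor Klf12 was among them. A gene with 1 region cannot have both. Only 1 MDM region was found at 169 of 258 genes, and only 1 YSM region at 284 of 473. The share is therefore no direct comparison for genes with as many regions as Dach1 and Klf12.

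Both genes are long. The counts per gene and per length given here use the measure that chose the genes, so they are only description. Dach1 spans 383 kb and Klf12 420 kb, longer than 98.3% and 98.6% of protein-coding genes, whose median is 17.2 kb. Of 557 genes of 300 kb or more, 7% had an MDM region and 12% a YSM region. Among these long genes the median count was 1 MDM and 2 YSM regions where there were any. The next highest counts after Dach1 and Klf12 were 6 and 11. Per length, Klf12 had 2.86 regions inside for every 100 kb of gene. This was the highest of 50 long genes with a YSM region inside, where the median was 0.312. Of the 12 regions inside Klf12, 10 lay between the annotated 5' end and the start in the promoter table. The value for Klf12 therefore rests on the far annotated 5' end. Dach1 had 0.783, rank 6 of 30 long genes with an MDM region inside, where the median was 0.228 and the highest Plcb4 with 1.69.

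**Figure D4:**
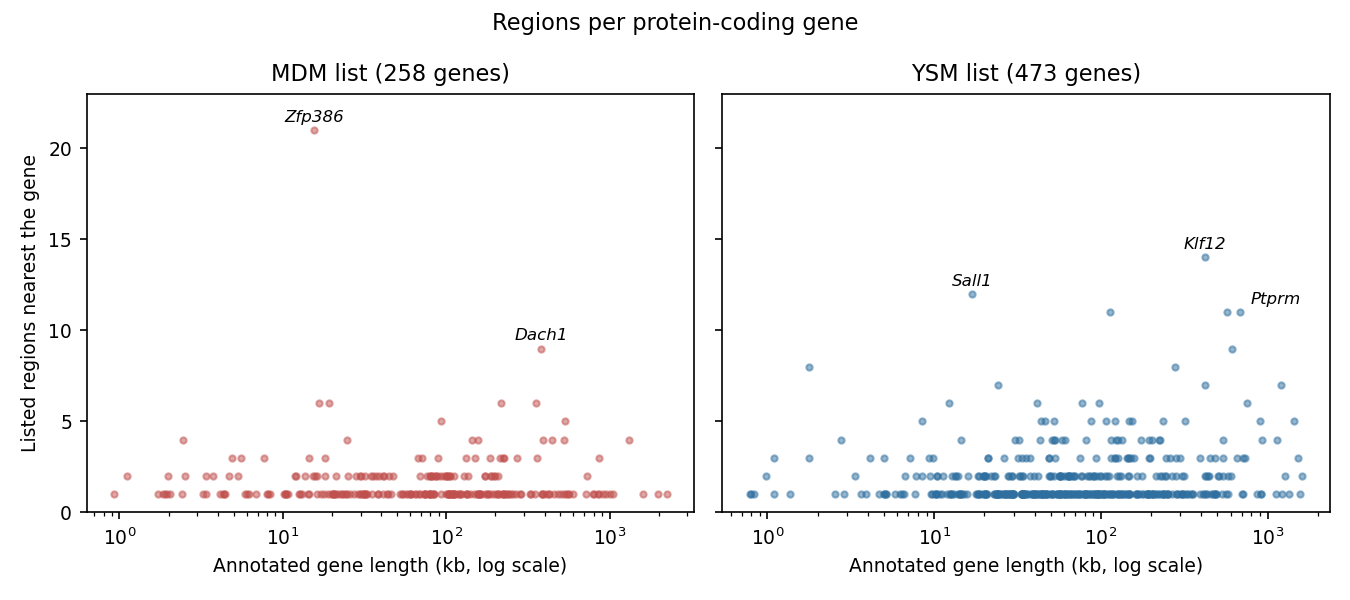
Number of listed regions nearest each protein-coding gene against annotated gene length (kb, log axis), for the 258 genes of the MDM list (left) and the 473 genes of the YSM list (right). Klf12 (14 regions) and Sall1 (12) top the YSM panel, and Dach1 (9) stands below Zfp386 (21) in the MDM panel.

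Few genes among the families and partners of Dach1 and Klf12 had listed regions, and each share rests on a count of 0 or 1. Of 16 other Krüppel-like factor genes and 9 Sp factor genes, which bind the same class of sequence, 0 had a region of either list. In the network of Dach, Eya and sine oculis homeobox genes, 0 of 13 other genes had an MDM region and 1 had a YSM region. It was Eya4, a transcriptional coactivator and phosphatase gene, with a region 68.8 kb from its end and inside the gene (chr10:23170781-23172781). Of 18 genes for partners and corepressors of Dach1 and Klf12, including Ctbp1, Ctbp2 and the AP-2 family, 0 had an MDM region and 1 had a YSM region. It was Hdac2, a histone deacetylase gene, with its region 57.2 kb outside the gene (chr10:36916132-36918132). Against 1.18% of all coding genes with an MDM and 2.16% with a YSM region, lists of this size would hold few such genes in any case.

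Among 19 regulators and receptors of macrophages, a list written with earlier results of these data known, 3 had YSM regions and 0 had MDM regions. Sall1 had 12, the nearest inside the gene (chr8:89042804-89044804), its relative Sall3 had 2, and Runx1, a transcription factor needed to form blood stem cells, had 1 inside the gene (chr16:92631740-92633740). Spi1, which encodes PU.1, Irf8, Csf1r and Cx3cr1 were among the 16 without a region. Of all coding genes, 2.16% had a YSM and 1.18% an MDM region, and no difference between the lists was tested on counts this small.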

How the data were processed

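H3K27ac regions listed for MDM and YSM brain macrophages were analysed as deposited by the authors, from 4 libraries per group; the H3K27me3 libraries were not analysed here. Trimmomatic 0.39, Bowtie2 2.2.5, HOMER and Picard are named, with build mm10 but no steps, per the submitters' processing notes. The score and the positions in the lists deposited by the authors are used without change, except that starts are counted from 1. The names of the lists give DESeq2 for the authors' test. Its threshold and scaling were not given in the sources used here.

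Regions were assigned with Python 3.11.15 and pandas 2.3.3 to the gene with the nearest end among 21887 RefSeq protein-coding genes (GRCm38.p6). Strand came from the RefSeq promoter table, which held 79.9% of these genes. Motifs were searched on both strands of 32851 windows; the 14 motifs were the 4 spelled out beside the windows, the E-box (CACGTG), the AP-1 motif (TGANTCA), the RUNX motif (TGTGGT), the ETS motif (CCGGAAG), the SMAD motif (GTCTAGAC), the YY1 motif (AAGATGGC), the CCAAT box, spelled as its name, and the longer motifs of IRF, MEF2 and NRF1. The assignment was tested on simulated regions planted just outside the ends of genes that did not overlap. Regions deep inside genes, far from a gene end or beside overlapping genes were not planted. Named genes were Dach1, Klf12, the coding genes of the interval, the 3 genes with the next most regions per list (ties to the smaller distance), the 5 closest opposite pairs and members of 5 gene lists with a region. Other named genes (Lmo4, Mmadhc, Fam155a, cell type markers, the genes flanking the interval and list members without a region) were picked once their values had been seen. The genes, lists and rules were chosen with earlier results of these data known. No p-value was computed.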

Additional observations from a re-analysis of the deposited data

How the results depend on the processing

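No paired analysis was possible because values of single libraries are not in the lists, so that leaving out a library could not be tried either. A stricter score was not run because all 23 scores equal 1. The count of regions nearest Dach1 lay between 7 and 9 under every assignment and subset tried. The opposite list had 0 regions at either gene in each. A subset can only remove regions, and the opposite lists chose the genes, so this 0 is a description and no support. The count nearest Klf12 was 12 to 14, except that it fell to 3 of 14 with genes of all types, where the pseudogene Gm16260 took 6 regions, Gm41231 took 4 and Gm34199 took 1, and to 7 with name numbers of 2 or more, where fewer regions enter. Klf12 groups numbered 4 when regions within 50 kb were joined. The gap between the lists grew to 1854 kb with name numbers of 2 or more. Genes of the 5 gene lists with a region numbered 5, but 3 with genes of all types (without Eya4 and Sall3) and 4 with name numbers of 2 or more (without Runx1). The nearest transcription start, an alternative chosen after seeing the data and without chromosomes absent from the promoter table, also gave 9 and 14 regions, and among the gene lists Six2 entered while Sall3, on such a chromosome, dropped out. Over all settings, shares inside the genes ranged between 22.2% and 42.9% for Dach1 and between 66.7% and 91.7% for Klf12. No setting placed the 5' end of Klf12 at the start in the promoter table. The settings reuse the same regions or part of them, down to 3 at Klf12, so this range is only a description. Depth is unknown.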
